A study of Mus musculus with 20 samples.

Results

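Cholesterol synthesis and SREBP2 targets were followed in mouse liver as 27 named genes, out of 48440 genes in the count table. They were taken by name for their known role, although earlier results of these data were known when the list was chosen. Of them, 8 encode enzymes of the mevalonate and isoprenoid steps, 3 act between farnesyl pyrophosphate and lanosterol, and 8 convert lanosterol to cholesterol. A further 3 encode SREBP2 and the proteins that carry or hold it, and 5 encode sterol-handling proteins and other targets. Liver RNA was sequenced from 20 wild-type female C57BL/6 mice, labelled as 8 weeks of age and as treated for 5 weeks, 5 mice in each of 4 groups. All mice received an injected antibody and a drinking-water treatment. The Isotype + Vehicle group received an isotype control antibody and vehicle, and the Isotype + CORT group the same antibody with corticosterone (CORT), the main glucocorticoid of rodents. The αACBP + Vehicle and αACBP + CORT groups received a monoclonal antibody that neutralizes ACBP, the acyl-CoA-binding product of Dbi, in place of the isotype control. The comparisons ask whether chronic glucocorticoid exposure, a model of Cushing's syndrome, and neutralization of ACBP were accompanied by other transcript levels of these genes.

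Cells make cholesterol from acetyl-CoA through mevalonate, farnesyl pyrophosphate, squalene and lanosterol. SREBP2 is a membrane-bound transcription factor. When sterols in the endoplasmic reticulum are low, SCAP escorts SREBP2 to the Golgi, where proteases release the part that enters the nucleus and activates nearly every gene of the pathway. When sterols are high, INSIG proteins hold SCAP in the endoplasmic reticulum and the pathway's transcripts fall together. The liver is a main site of this synthesis, which also follows feeding and the time of day.

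SREBP2 binds sterol regulatory elements near transcription starts, commonly beside sites of NF-Y and Sp1. The 250 bases before the start were read from RefSeq on the GRCm38.p6 build for the 22 members with an entry, and Fdps, Fdft1, Sqle, Stard4 and Soat2 had no entry. The promoters of 4 members are shown, that of Hmgcs1 as the pathway's promoter with a sterol regulatory element and those of Sc5d, Rdh11 and Tm7sf2 since these genes passed the test below. The sequences run 5′ to 3′ up to the start. Capitals mark TCACNCCAC (a sterol regulatory element), CACGTG (an E-box) and CCAAT (the NF-Y motif), each on either strand, so that CCAAT also appears as ATTGG.
Hmgcs1 (chr13:119690101-119690350, plus strand): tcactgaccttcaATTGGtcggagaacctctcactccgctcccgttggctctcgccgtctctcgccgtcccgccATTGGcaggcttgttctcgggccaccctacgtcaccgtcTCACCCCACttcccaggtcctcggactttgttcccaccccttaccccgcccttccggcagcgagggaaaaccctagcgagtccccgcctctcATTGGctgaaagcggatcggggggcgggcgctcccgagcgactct
Sc5d (chr9:42264301-42264550, minus strand): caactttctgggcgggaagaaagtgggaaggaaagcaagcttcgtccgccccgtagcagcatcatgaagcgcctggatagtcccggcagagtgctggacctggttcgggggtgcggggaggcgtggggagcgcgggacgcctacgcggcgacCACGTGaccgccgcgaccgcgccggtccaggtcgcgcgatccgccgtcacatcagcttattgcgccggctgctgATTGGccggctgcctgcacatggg
Rdh11 (chr12:79190962-79191211, minus strand, 1 of 2 starts): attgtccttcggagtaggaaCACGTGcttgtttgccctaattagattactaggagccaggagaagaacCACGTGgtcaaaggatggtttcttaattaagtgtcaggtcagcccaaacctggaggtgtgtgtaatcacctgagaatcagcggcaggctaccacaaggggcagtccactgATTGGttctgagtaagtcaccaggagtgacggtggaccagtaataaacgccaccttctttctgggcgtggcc
Tm7sf2 (chr19:6067851-6068100, minus strand): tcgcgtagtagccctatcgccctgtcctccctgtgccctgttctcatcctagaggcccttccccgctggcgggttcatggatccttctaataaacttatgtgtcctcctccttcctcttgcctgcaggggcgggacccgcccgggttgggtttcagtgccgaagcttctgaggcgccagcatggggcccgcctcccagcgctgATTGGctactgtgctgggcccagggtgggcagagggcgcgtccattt
Hmgcs1 held TCACNCCAC, the letters found in 1.05% of 32851 mouse starts, and 0 of the other 21 members did. Acat2 and Hmgcs1 held the shorter CACCCCAC, which lies within some matches of the longer one and was found at 2.58% of starts. CCAAT was present in 20 of the 22 members against 33.8% of all starts, and GGGCGG, an Sp1 motif, in 19 against 32.7%. CACGTG was present in 6 members (Sc5d, Rdh11, Dhcr7, Hsd17b7, Insig1 and Scap) and at 6.02% of all starts, and AGAACA, a short motif of the glucocorticoid receptor, in 4 members (Hmgcs1, Hsd17b7, Scap and Tm7sf2) and at 16.1% of starts. A gene can have several starts in this table, and a member was counted when any of its starts held the motif. The other start of Rdh11 (chr12:79191856-79192105) held none of the marked motifs. A match of letters is not a measured binding site.

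Each liver had 14934926 to 20299999 counts on genes, at which 3 counts correspond to 0.205 CPM (a gene's counts scaled to a common library size) or less. All 27 members were among the 16071 genes that passed the filter on low counts. Genes of hepatocytes dominated, with 7 markers summing to between 68122 and 118772 CPM in the Isotype + Vehicle group and to between 38575 and 93583 CPM in the αACBP + Vehicle group. Kupffer cell markers (7 genes) summed to between 121 and 349 CPM with CORT under isotype and to between 321 and 611 CPM with vehicle, and B cell markers (5 genes) to between 3.59 and 18.7 CPM against 41.5 to 62.4 CPM. Clock genes separated the livers as well: Dbp, an output gene of the circadian clock, was at 151 to 611 CPM in the αACBP + Vehicle group and at 5.42 to 23.5 CPM in the Isotype + Vehicle group. Among the CORT-treated livers, Isotype + CORT replicates 3 and 5 (144 and 114 CPM) and αACBP + CORT replicate 5 (195 CPM) were above the others of their groups, which lay between 6.44 and 40.4 CPM. The labels give no time of collection. The part of these cell markers and clock genes in the results on sterol genes was not tested beyond the fits named below. In RNA from whole tissue, fewer cells of a type and less RNA per cell cannot be told apart. Fkbp5, a gene induced by glucocorticoids, rose with CORT under isotype by 1.70 on the log2 scale (adjusted p = 0.000722, edgeR quasi-likelihood test), while of all 12 glucocorticoid-response genes 6 were higher and 6 lower, with a median of -0.05, and Fkbp5 alone was called. Transcript levels of Dbi cannot check an antibody that acts on the protein.

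Levels of different members are compared per kilobase of exon, as means of the Isotype + Vehicle group. The length counts all annotated exons of a gene together (11148 bases for Mvk, 2377 for Soat2), so the order of members depends on the annotation. In CPM, without this scaling, Mvk was at 30.8 and Mylip at 8.96. Hmgcs1, the synthase that makes HMG-CoA, was the highest at 212 ± 60.2 CPM per kb (SD, n = 5). Sc5d, a late desaturase that makes 7-dehydrocholesterol, followed at 121 ± 10.7, and Insig1, which retains SCAP, at 118 ± 8.89 CPM per kb (SD, n = 5 each), a difference within their spread. Ebp, the sterol isomerase, was at 77.8 ± 16.8 and Soat2, which esterifies cholesterol in hepatocytes, at 67.8 ± 12.8 CPM per kb (SD, n = 5 each). The lowest 5 were Mvk (mevalonate kinase) at 2.76 ± 0.71, Mylip (a ubiquitin ligase induced by the liver X receptor) at 2.70 ± 0.464, Idi1 (isopentenyl diphosphate isomerase) at 2.30 ± 0.86, Fdps (farnesyl diphosphate synthase) at 2.12 ± 1.07 and Ggps1 (geranylgeranyl diphosphate synthase) at 1.48 ± 0.363 CPM per kb (SD, n = 5 each), and neighbours among them overlapped. In GENCODE M39, 95.7% of the Idi1 transcript and 89.3% of that of Fdps also occur elsewhere in the genome in copies at least 98% identical over 100 bases. For Tmem97 the share was 70.8%, for Acat2 44.6% and for Hmgcs1 9.67%, so the counts of these genes depend on how pairs matching several places were treated. Exons on the opposite strand cover 28.3% of the exon bases of Cyp51, 24.8% of Fdft1 (by Ctsb), 20.5% of Mvd and 18.6% of Tmem97 (by Ift20), and without a stated strand setting reads of both genes cannot be told apart there.

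Most members were high or low together from liver to liver. Over the 27 members, the mean log2 CPM relative to the mean of the 20 livers lay between 0.26 and 0.70 in the Isotype + Vehicle group. In the Isotype + CORT group it went from -0.94 to 0.16, in the αACBP + Vehicle group from -0.92 to 0.42 and with αACBP + CORT from -0.85 to 0.22. Each Isotype + Vehicle liver was above every CORT-treated liver, with either antibody, while 2 of the 5 αACBP + Vehicle livers reached the Isotype + Vehicle range. A liver stood low in each of the other groups. Isotype + CORT replicate 3 had the lowest level of its group for 22 members, αACBP + Vehicle replicate 1 for 24 and αACBP + CORT replicate 4 for 16. At the other end, αACBP + CORT replicate 5 was the highest of its group for 17 members.

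**Figure D1:**
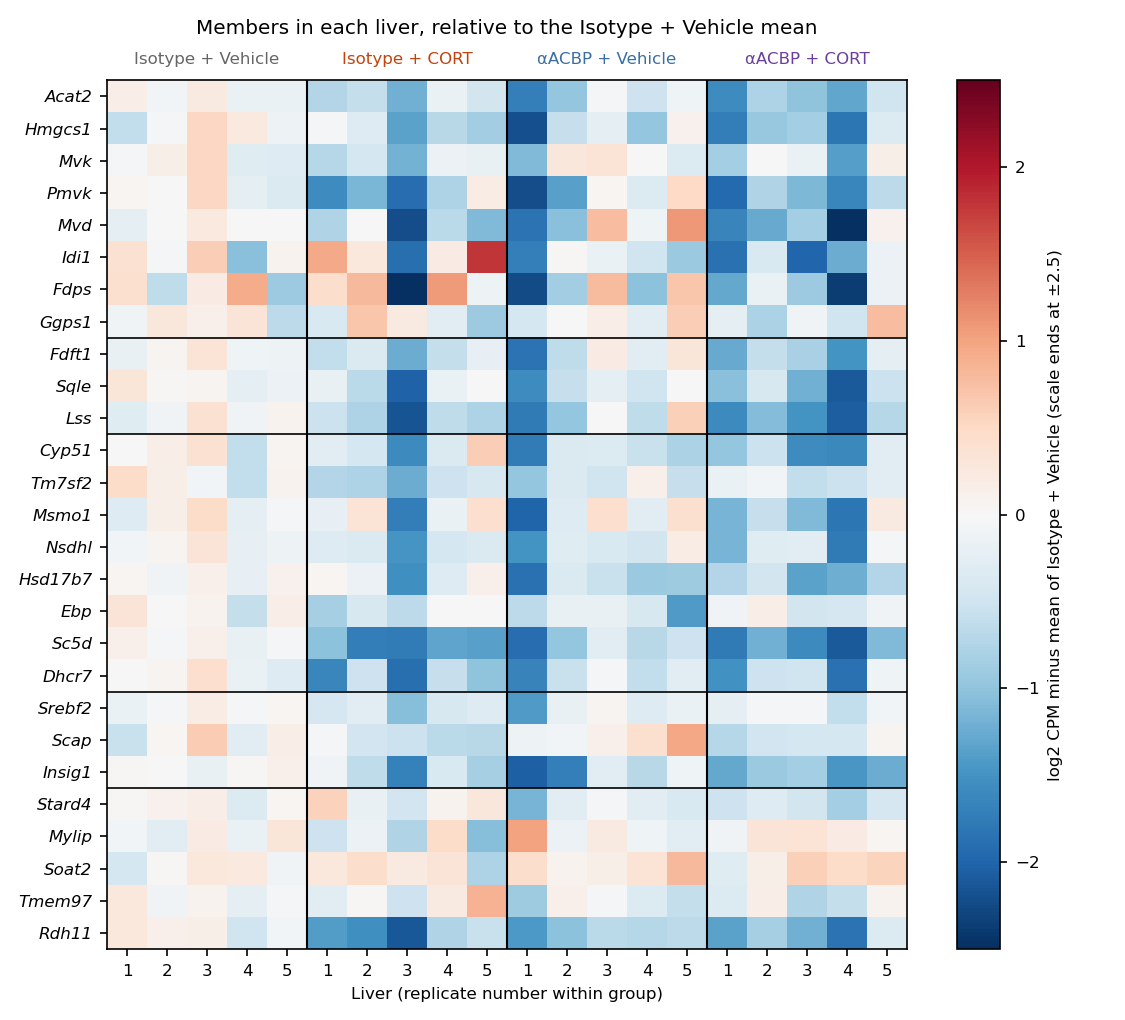
Log2 CPM of the 27 members (rows, in pathway order, separated by role) in the 20 livers (columns) relative to the Isotype + Vehicle mean of each gene. Blue columns mark livers low for most members, such as Isotype + CORT replicate 3 and αACBP + Vehicle replicate 1, while Mylip and Soat2 do not follow.

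**Figure D2:**
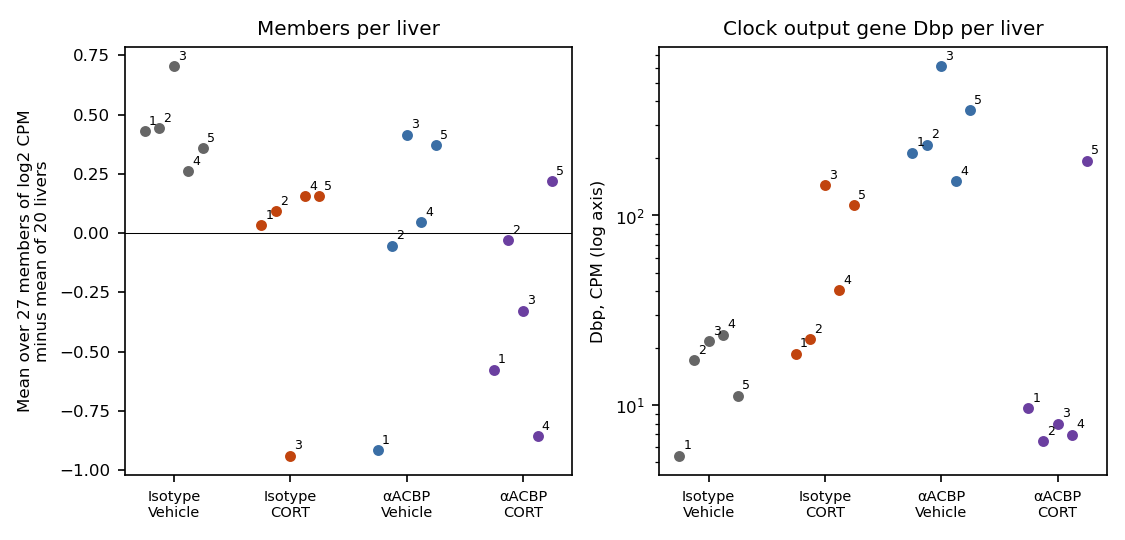
Left, the mean over the 27 members of log2 CPM minus the mean of the 20 livers, 1 point for each liver with its replicate number. Right, CPM of Dbp on a log axis; the αACBP + Vehicle livers lie between 151 and 611 CPM and the Isotype + Vehicle livers between 5.42 and 23.5 CPM.

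With CORT under isotype, 22 of the 27 members were at lower levels and 5 at higher, with a median log2 fold change of -0.52, beside 0.00 for all genes tested. Without 1 liver the median lay between -0.60 (without Isotype + CORT replicate 5) and -0.38 (without Isotype + CORT replicate 3). It was -0.39 without the 3 CORT-treated livers that stood apart in Dbp, and -0.60 with an index of clock genes as a covariate. Calls required an adjusted p (Benjamini-Hochberg, over all genes tested) of at most 0.05 together with a log2 difference of 1 or more in either direction. Sc5d and Rdh11 fell by this rule, 2 of 27, while 1.94% of all genes were called in this comparison. At the adjusted p alone, 3 members passed, with Tm7sf2 as the third, beside 3.2% of all genes. At an unadjusted p of 0.05, 9 members were lower, beside 7.86% of all genes.

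Sc5d was at 806, 728, 810.2, 652 and 727 CPM in the 5 Isotype + Vehicle livers and at 362, 224, 221, 299.6 and 291 CPM in the 5 Isotype + CORT livers. The groups did not overlap, and the highest CORT-treated liver was well below the lowest vehicle liver. The log2 fold change was -1.41 (standard error 0.23, 95% confidence interval -1.88 to -0.95, adjusted p = 0.000722). Sc5d lies on the minus strand of chromosome 9 (GRCm39, 42162891 to 42175605). Rdh11, a retinol dehydrogenase of the endoplasmic reticulum that is a known SREBP target, was at 130.0, 119, 119.8, 76.6 and 104 CPM with vehicle and at 41.2, 37.0, 24.8, 64.1 and 73.7 CPM with CORT. The groups were separated by a narrow gap between Isotype + Vehicle replicate 4 and Isotype + CORT replicate 5. It fell by 1.19 on the log2 scale (standard error 0.26, 95% confidence interval -1.73 to -0.64, adjusted p = 0.0118). Rdh11 lies on the minus strand of chromosome 12 (GRCm39, 79220408 to 79239067), and 11.8% of its exon bases overlap a predicted gene on the other strand. Both calls remained whichever of the 10 livers was left out.

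Tm7sf2, a sterol reductase acting after lanosterol demethylation, was at 191, 155, 134, 90.9 and 148 CPM with vehicle and at 83.8, 81.4, 58.8, 97.5 and 106 CPM with CORT. The groups overlapped in 1 vehicle liver, replicate 4. The log2 fold change was -0.75 with a standard error of 0.20 (adjusted p = 0.0362), and 10.8% of the exon bases are shared with Vps51 on the same strand. This adjusted p remained at or under 0.05 in 3 of 10 fits without 1 liver (without Isotype + Vehicle replicate 4, or Isotype + CORT replicate 4 or 5) and reached 0.0997 without Isotype + Vehicle replicate 1. It was 0.0814 with an index of clock genes as a covariate, 0.0620 in a fit of both groups alone and 0.0761 without the 3 livers apart in Dbp.

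The other steps are given by role. In the mevalonate and isoprenoid steps, 6 of 8 members were lower with CORT under isotype and 2 higher, with a median log2 fold change of -0.57, and 0 passed the adjusted p. Acat2, which condenses acetyl-CoA, had values of 85.0 to 111 CPM with vehicle and 41.7 to 84.9 CPM with CORT (log2 fold change -0.61, adjusted p = 0.197). Hmgcs1 was at 705 to 1552 CPM with vehicle and at 424 to 1051 CPM with CORT, overlapping ranges with a log2 fold change of -0.63 (adjusted p = 0.41). Mvk (-0.53), Pmvk (phosphomevalonate kinase, -0.88) and Mvd (mevalonate decarboxylase, -0.80) were lower without passing the test, and Ggps1 differed by -0.06. Idi1 (0.58) and Fdps (0.16) were the 2 higher members of this role, each with an interval across 0.

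Between farnesyl pyrophosphate and lanosterol, the values of Fdft1 (squalene synthase), Sqle (squalene epoxidase) and Lss (lanosterol synthase) were -0.58, -0.47 and -0.89 on the log2 scale, with adjusted p of 0.347, 0.579 and 0.21. Lss was at 94.4 to 150.4 CPM with vehicle and at 26.0 to 80.2 CPM with CORT, without overlap. Of the 8 members from lanosterol to cholesterol, all were at lower levels, with a median of -0.46. Dhcr7, a late sterol reductase, was at 140.0, 145, 185, 123 and 111 CPM with vehicle and at 44.9, 97.4, 37.6, 93.0 and 69.3 CPM with CORT. These groups did not overlap, and the log2 fold change of -1.04 (standard error 0.33) missed the adjusted limit (adjusted p = 0.0931). Cyp51 (lanosterol demethylase, -0.29), Msmo1 (a sterol C4 oxidase, -0.13), Nsdhl (a C4 decarboxylase, -0.55), Hsd17b7 (a C3 ketoreductase, -0.26) and Ebp (-0.36) did not pass.

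Srebf2, which encodes SREBP2 itself, was at 72.8, 80.0, 92.3, 80.2 and 84.2 CPM with vehicle and at 60.9, 68.2, 38.8, 62.0 and 64.9 CPM with CORT. The groups did not overlap, and the log2 fold change was -0.47 with a standard error of 0.20 (adjusted p = 0.219). For Scap and Insig1 the values were -0.52 and -0.64 (adjusted p = 0.215 and 0.274). Among the remaining targets, Stard4 (a sterol carrier, 0.09), Soat2 (0.13) and Tmem97 (an endoplasmic reticulum protein that binds sterols, 0.14) were slightly higher and Mylip (-0.33) lower, all with intervals across 0. In all, 8 of 27 members had groups that did not overlap (Acat2, Fdft1, Lss, Nsdhl, Sc5d, Dhcr7, Srebf2 and Rdh11), each lower with CORT, and 3.02% of all genes were so separated in this direction.

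**Figure D3:**
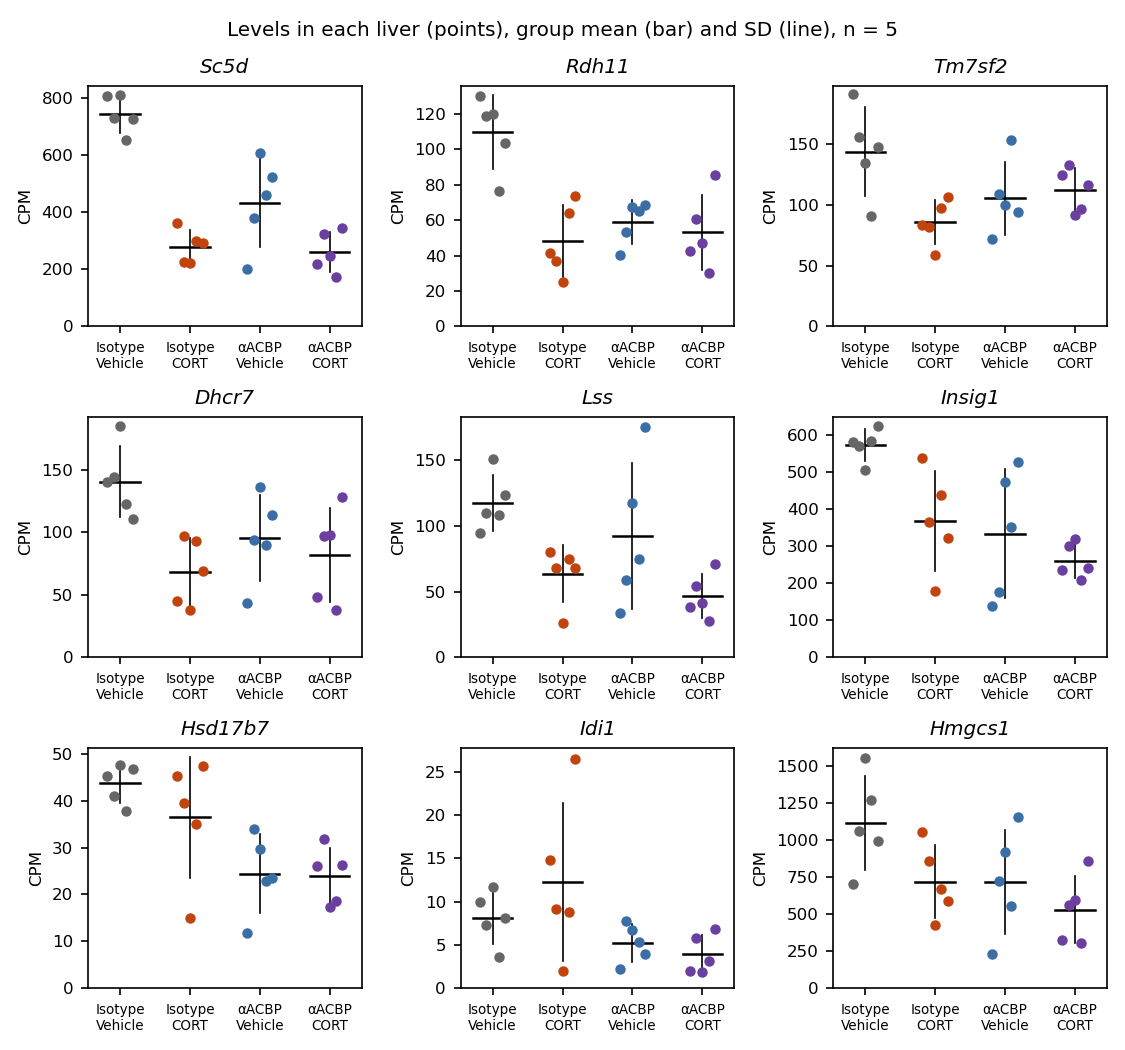
CPM of 9 members in the 20 livers (points), with group means (bars) and SD (lines), n = 5 in each group; axes start at 0. Sc5d lies at 652 to 810.2 CPM in Isotype + Vehicle livers and at 221 to 362 CPM in Isotype + CORT livers.

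Without CORT, 22 members were at lower levels under αACBP than under isotype and 5 at higher, with a median log2 fold change of -0.41, beside -0.02 for all genes. With 1 liver left out the median lay between -0.57 (without αACBP + Vehicle replicate 5) and -0.23 (without αACBP + Vehicle replicate 1). Hepatocyte markers had lower values in this comparison too, 5 of 7, with a median of -0.44, and 0 of them were called. Their part in the members' difference was not tested. By both limits 0 of 27 members were called against 1.3% of all genes, and 8 members were lower at an unadjusted p of 0.05, beside 10.2% of all genes. At the adjusted p alone, Sc5d and Rdh11 passed, 2 of 27, while 5.14% of all genes did. Sc5d was at 199, 379, 607, 461 and 522 CPM in the αACBP + Vehicle livers, all below the Isotype + Vehicle livers given above (log2 fold change -0.78, standard error 0.23, adjusted p = 0.04). Rdh11 was at 40.0, 53.3, 67.4, 65.4 and 68.5 CPM, again without overlap (-0.90, standard error 0.26, adjusted p = 0.0453). Hsd17b7 was at 11.8, 34.0, 29.7, 23.0 and 23.5 CPM against 45.3, 41.1, 47.6, 37.8 and 46.8 CPM under isotype. Its log2 fold change was -0.84 with a standard error of 0.25 (adjusted p = 0.0503), just above the limit. These 3 members had groups that did not overlap, and 3.63% of all genes were separated in this direction.

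Insig1 split the αACBP + Vehicle group, at 139 and 175 CPM in replicates 1 and 2 and at 474, 353 and 529 CPM in replicates 3 to 5. With isotype and vehicle it was at 583, 573, 506, 585 and 626 CPM, so that 1 αACBP + Vehicle liver reached this range (log2 fold change -0.78, adjusted p = 0.114). Ebp (-0.54), Cyp51 (-0.71), Acat2 (-0.56), Hmgcs1 (-0.64) and Dhcr7 (-0.56) did not pass. Mvd (0.13), Ggps1 (0.02), Scap (0.25), Mylip (0.21) and Soat2 (0.37) were the 5 members with higher fitted values, all with intervals across 0. The adjusted p of Sc5d remained at or under 0.05 in 2 of 10 fits without 1 liver and reached 0.111 without αACBP + Vehicle replicate 1, and that of Rdh11 in 1 of 10, with 0.126 without Isotype + Vehicle replicate 1. With an index of clock genes as a covariate, 0 of all 16071 genes passed in this comparison, and the members' median was -0.78. The index did not overlap between these groups (-4.83 to -0.81 with isotype, 2.64 to 7.05 with αACBP), so this fit cannot separate it from the antibody.

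Under CORT, the antibody comparison called 0 of 27 members, while 0.597% of all genes were called by both limits and 0.958% by the adjusted p alone. Of the members, 18 were lower and 9 higher with αACBP, with a median log2 fold change of -0.24 (all genes, 0.01), and 3 were lower at an unadjusted p of 0.05, beside 5.69% of all genes. Without 1 liver the median lay between -0.44 (without αACBP + CORT replicate 5) and -0.11 (without αACBP + CORT replicate 4), with -0.40 without Isotype + CORT replicate 3, -0.18 without Isotype + CORT replicate 2 and -0.14 without either Isotype + CORT replicate 5 or αACBP + CORT replicate 1. Idi1 was at 14.8, 9.21, 1.98, 8.80 and 26.5 CPM in the Isotype + CORT livers and at 2.02, 5.79, 1.84, 3.13 and 6.86 CPM in the αACBP + CORT livers. The ranges overlapped through Isotype + CORT replicate 3, and the log2 fold change was -1.64 (standard error 0.50, 95% confidence interval -2.66 to -0.62, adjusted p = 0.116). Without that liver it was -1.91 (adjusted p = 0.0149), and DESeq2's Wald test called Idi1 with all livers (adjusted p = 0.0413). As given above, 95.7% of the Idi1 transcript also occurs in near-identical copies elsewhere, so its counts depend on the treatment of such pairs. Stard4 (-0.60, adjusted p = 0.139) and Hsd17b7 (-0.60, adjusted p = 0.309) were the other 2 members lower at the unadjusted p. Sc5d differed by -0.10, with a 95% confidence interval from -0.56 to 0.36, and Rdh11 by 0.14, from -0.39 to 0.68. Tm7sf2 was at 124, 133, 91.7, 96.8 and 116 CPM with αACBP and CORT, a log2 fold change of 0.39 over Isotype + CORT (adjusted p = 0.434). The members' median was -0.07 with the clock index as a covariate and -0.48 without the 3 CORT-treated livers that stood apart in Dbp.

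Between the αACBP + CORT and αACBP + Vehicle groups, 0 of 27 members were called, beside 0.212% of all genes by both limits and 0.305% by the adjusted p alone. The fitted values were lower with CORT for 23 members, with a median of -0.27 (all genes, 0.01), and 3 were lower at an unadjusted p of 0.05, beside 5.23% of all genes. These were Sc5d (-0.73, adjusted p = 0.142), Lss (-0.99, adjusted p = 0.243) and Scap (-0.69, adjusted p = 0.156). Scap was at 189, 197, 225, 272 and 403 CPM with vehicle and at 127, 149.5, 154, 154 and 216 CPM with CORT, with 1 CORT-treated liver inside the vehicle range. With the clock index as a covariate the median turned to 0.08, with 12 members lower, and 0 of all genes were called. The index ran from 2.64 to 7.05 in the αACBP + Vehicle livers and from -6.14 to 3.62 in the αACBP + CORT livers. These ranges met only through αACBP + CORT replicate 5, so this fit can hardly separate the index from the treatment. Without the 3 livers apart in Dbp the median was -0.44. With 1 liver left out it lay between -0.44 (without αACBP + Vehicle replicate 1 or αACBP + CORT replicate 5) and -0.10 (without αACBP + CORT replicate 4), and it was -0.18 without αACBP + Vehicle replicate 3.

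Against Isotype + Vehicle, the αACBP + CORT livers had the lowest median of the members among the 3 groups, while fewer members were called than with CORT under isotype. All members other than Mylip and Soat2 were at lower levels, 25 of 27, with a median log2 fold change of -0.82, beside 0.00 for all genes. With 1 liver left out the median lay between -1.01 (without αACBP + CORT replicate 5) and -0.69 (without αACBP + CORT replicate 4). Sc5d was called, 1 of 27, while 0.0684% of all genes passed both limits and 0.0809% the adjusted p alone. It was at 218, 324, 245, 174 and 343 CPM with both treatments (log2 fold change -1.51, standard error 0.23, 95% confidence interval -1.98 to -1.04, adjusted p = 0.00534). At an unadjusted p of 0.05, 15 members were lower and 0 higher, beside 3.1% and 4.49% of all genes. Insig1 was at 237, 301, 319, 208 and 241 CPM, below each Isotype + Vehicle liver (-1.14, adjusted p = 0.144). Lss was at 38.2, 54.3, 41.1, 27.6 and 71.0 CPM (-1.34, adjusted p = 0.189) and Acat2 at 32.0, 55.9, 47.9, 39.0 and 67.7 CPM (-0.99, adjusted p = 0.121), again without overlap. Sqle (-0.96), Pmvk (-1.17), Fdft1 (-0.82) and Hsd17b7 (-0.87) were separated as well, so that 8 of 27 members did not overlap, beside 1.46% of all genes lower in this way. These mice received both agents, and this comparison cannot divide the difference between them. The count of calls depended on the test: DESeq2's Wald test and a fit of these groups alone each called 5 members (beside 0.523% and 0.42% of all genes), and Rdh11 (-1.04, adjusted p = 0.132) joined without αACBP + CORT replicate 5 (adjusted p = 0.0298). Without the 3 livers apart in Dbp, 4 members were called (Sc5d, Rdh11, Acat2 and Cyp51) with a median of -1.02, beside 0.285% of all genes.

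**Figure D4:**
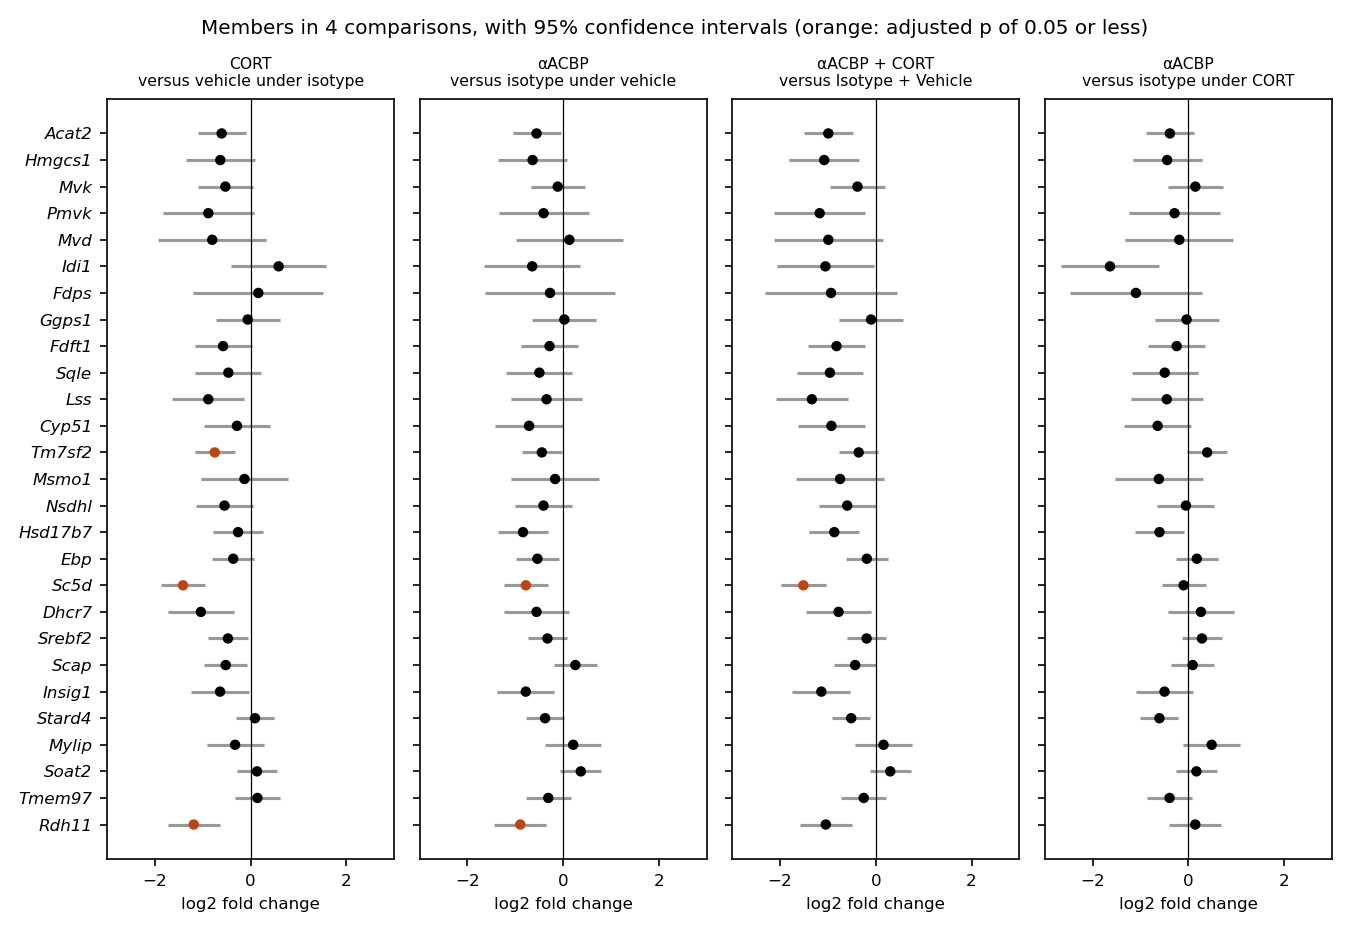
Log2 fold changes of the 27 members (points) with 95% confidence intervals (lines) in 4 comparisons; orange points have an adjusted p of 0.05 or less. In the comparison of αACBP + CORT with Isotype + Vehicle, 25 of 27 points lie below 0. The first 3 panels share the Isotype + Vehicle livers and are not independent of each other.

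The interaction term asks whether the difference with CORT depended on the antibody. It passed for 0 of 27 members, beside 0.143% of all genes by both limits and 0.143% by the adjusted p alone (the same count). The median was 0.12 (all genes, 0.03), and 5 members had a positive term at an unadjusted p of 0.05, that is, a less negative or a positive difference with CORT under αACBP. Of all genes, 5.53% had such a term. These were Rdh11 (1.04, 95% confidence interval 0.28 to 1.80, adjusted p = 0.257), Tm7sf2 (0.84, 0.26 to 1.42, adjusted p = 0.229), Ebp (0.72, adjusted p = 0.362), Sc5d (0.68, 0.03 to 1.33, adjusted p = 0.436) and Srebf2 (0.61, adjusted p = 0.428). In each of them the αACBP + Vehicle mean was already below that of Isotype + Vehicle: for Tm7sf2 the group means were 144 ± 36.3, 85.6 ± 18.1, 106 ± 30.0 and 112 ± 17.6 CPM (SD, n = 5) for Isotype + Vehicle, Isotype + CORT, and then αACBP with vehicle and with CORT. For Srebf2 they were 81.9 ± 7.13, 59.0 ± 11.6, 65.2 ± 20.8 and 71.7 ± 11.2 CPM (SD, n = 5), in the same order. The median term was 0.60 with the clock index as a covariate, which can hardly be separated from the treatments of the αACBP + Vehicle group, as given above. It was -0.03 without the 3 livers apart in Dbp. With 1 liver left out it lay between -0.10 (without αACBP + Vehicle replicate 1) and 0.25 (without αACBP + Vehicle replicate 3). It was also negative without αACBP + CORT replicate 5 (-0.04) or Isotype + Vehicle replicate 3 (-0.00050), and it was 0.01 without Isotype + CORT replicate 3.

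Within groups, the members varied in step. After the group means were removed, 300 of 351 pairs of members had a positive correlation over the 20 livers, with a median Pearson r of 0.63. Between members and all other genes tested the median was -0.02, and 47.4% were positive. These correlations are a description over livers that share library depth and scaling. Msmo1 followed the mean of the other members most closely (r = 0.97), before Fdft1 (0.94), Lss (0.93), Nsdhl (0.91), Sqle (0.91), Acat2 (0.90) and Srebf2 (0.89). Mylip (-0.20) and Soat2 (-0.02) did not follow, and Ggps1 (0.20), Ebp (0.21) and Scap (0.42) did so loosely. Msmo1 itself ranged from 59.5 to 265 CPM in the Isotype + CORT group and from 49.6 to 266 CPM in the αACBP + Vehicle group, and its group means were 203 ± 45.0 CPM (Isotype + Vehicle), 185 ± 81.8 CPM (Isotype + CORT), 180.1 ± 89.5 CPM (αACBP + Vehicle) and 121 ± 67.7 CPM (αACBP + CORT; SD, n = 5 each). Sc5d followed the others too (0.86), with less spread within groups.

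**Figure D5:**
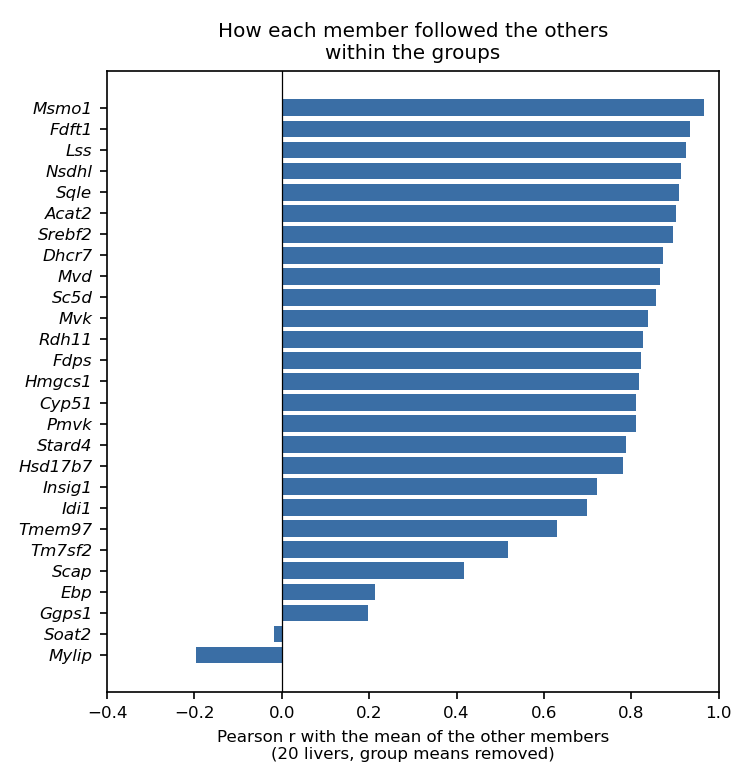
Pearson r of each member with the mean of the other members over the 20 livers after group means were removed (bars). Msmo1 is at 0.97 and Mylip at -0.20.

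Outside the members, genes whose log2 CPM over the 20 livers was closest to the members' mean included Acly (ATP citrate lyase, r = 0.84), Mmab (0.83), Fmn1 (0.80), Acss2 (an acetyl-CoA synthetase, 0.80), Inadl (0.77), Tbc1d30 (0.77), Cyp8b1 (a bile acid hydroxylase, 0.76), Fam134b (0.76) and Mterf2 (0.75), each over 20 livers. Group means were not removed for these values, so they also carry differences between the groups.

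Neighbouring pathways are given by counts. The shares of all genes called were 1.94% with CORT under isotype, 1.3% with αACBP under vehicle and 0.0684% with both treatments against Isotype + Vehicle. For CORT under αACBP and for the interaction they were 0.212% and 0.143%. In lipogenesis, which SREBP1 drives, 16 of 19 genes were lower with CORT under isotype, with a median log2 fold change of -0.77, and 4 were called: Pnpla3 (-3.27), Acss2 (-1.88), Acacb (-1.54) and Aacs (acetoacetyl-CoA synthetase, -1.22). With both treatments against Isotype + Vehicle, 18 of 19 were lower, and Acss2 (-1.71) and Acly (-1.18) were called. Under vehicle, 16 of 19 were lower with αACBP, and 0 were called. In the list of other sterol regulators and transporters, 17 of 31 genes were higher and 14 lower with CORT under isotype, with a median of 0.02 and 0 calls. Insig2, the second INSIG gene, was at 119.8 ± 41.1 CPM (Isotype + Vehicle), 223 ± 97.6 CPM (Isotype + CORT), 48.2 ± 21.9 CPM (αACBP + Vehicle) and 171 ± 71.4 CPM (αACBP + CORT; SD, n = 5 each). It fell with αACBP under vehicle (-1.31, adjusted p = 0.0371) and rose with CORT under αACBP (1.82, adjusted p = 0.0344), whereas Insig1 was lower in the latter comparison without passing (-0.35). Abcg5, a subunit of a sterol export pump, rose with αACBP under vehicle (1.06, adjusted p = 0.00862). In bile acid synthesis, 9 of 14 genes were lower with CORT under isotype (median -0.16, 0 calls) and 14 of 14 with αACBP under vehicle (median -0.67), where Nr0b2 (-1.16) and Cyp7b1 (-1.09) were called. Clock genes called in that comparison were Dbp (4.31), Ciart (3.24), Tef (2.11), Arntl (-2.11) and Nfil3 (-1.14), and of the glucocorticoid-response genes Mt2 was called (2.12). Hlf (1.21) was the clock gene called with CORT under isotype, where Fkbp5 was the response gene called. Under αACBP, CORT was accompanied by a rise of Nfil3 (1.45), which was also called in the interaction (1.80).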

How the data were processed

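Liver RNA of 20 mice was measured by RNA sequencing. The authors aligned read pairs with HISAT2 and counted them on genes with HTSeq in union mode, pairs on overlapping features being counted on each, and deposited raw counts per gene and liver without normalization. The study's methods name GRCm39 and the submitters' processing notes mm10; the annotation release and the strand setting are not given in the sources used here. Column names gave the mouse of each column. Pairs on no annotated feature (42.3% to 45.2% of the total per liver) and other lines naming no gene were left out. Among these lines, that of pairs aligned to several places held 5.92% to 10.6% of the total.

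Members and lists were chosen with earlier results of these data known. All 27 members are named, together with those genes of other lists that were called. Genes were analysed in R 4.3.3 with the quasi-likelihood test of edgeR 4.0.16 (TMM normalization, robust estimation, edgeR's filter on low counts) in 1 model of the 4 groups without covariates. P-values were adjusted by the Benjamini-Hochberg method over 16071 genes, and CPM are normalized by TMM. Separate mice are the replicates. The smallest two-sided exact permutation p for 5 against 5 livers is 0.00794. Correlations within groups used log2 CPM with a prior count of 2. The deposited totals are given as counts on genes, and the floor of 3 counts covers counting error only. The clock index is the first principal component of 16 clock genes (70.6% of their variance). Alternatives were DESeq2 1.42.0 (size factors, Wald test), other filters, library sizes without the 20 most abundant genes, other thresholds, a fit of the compared groups alone, a block for the replicate number, the clock index, each liver left out and, chosen after the data were seen, 3 livers left out. The programs were tested on simulated data. Gene positions, exon overlaps and copies (BLAST+ 2.17.0) are from GENCODE M39 on GRCm39, which holds 91.4% of the table's identifiers, and promoters from RefSeq on GRCm38.p6; the builds were not mixed. Results of a gene taken by the likeness rule are not reported here.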

Additional observations from a re-analysis of the deposited data

Results flagged for a closer look

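Among 108 combinations of 27 members and 4 groups, 5 held a liver far from the other 4 by Dixon's test, and chance alone flags about 1 in 20 groups. All 5 were in the Isotype + CORT group. Replicate 3 was the lowest for Lss (26.0 CPM, the next liver at 68.1), Nsdhl (38.5 CPM, the next at 78.9) and Srebf2 (38.8 CPM, the next at 60.9). Replicate 1 was the highest for Scap (203 CPM, the next at 149), and replicate 5 was the lowest for Soat2 (93.4 CPM, the next at 185). Replicate 3 was also the lowest of its group for 22 of the 27 members and had the highest Dbp of its group (144 CPM); the part of either in these values was not tested.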

How the results depend on the processing

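Sc5d and Rdh11, the 2 calls with CORT under isotype, remained under each alternative run, Dhcr7 joined by DESeq2's Wald test, in the fit of the compared groups alone and at the unadjusted p, and Tm7sf2 joined without the limit on the fold change. Without a filter beyond 1 count, the adjusted p of Rdh11 for αACBP under vehicle was 0.0542 (edgeR quasi-likelihood test). In all comparisons 0 called values changed sign. For αACBP + CORT against Isotype + Vehicle, 1 member was called, with 5 by DESeq2's Wald test, 5 with only the groups compared, 7 at an unadjusted p with the fold limit, 4 without the 3 livers apart in Dbp (where 48 of 16835 genes were called), and 1 to 2 with each liver left out (2 without αACBP + CORT replicate 5). For αACBP against isotype under CORT, 0 became 1 by DESeq2's Wald test and at the unadjusted p, and 0 to 1 with each liver left out (1 without Isotype + CORT replicate 3). Under vehicle the antibody comparison had 2 calls without a limit on the fold change and 0 to 1 with each liver left out (1, Rdh11, without Isotype + Vehicle replicate 4). The interaction had 1 at the unadjusted p with the fold limit, and CORT under αACBP had 0 under each alternative. The cause of these changes was not tested, except that fits of fewer livers or with another threshold differ by construction. For the counts at an unadjusted p with the fold limit and those with each liver left out, the share of all genes was not computed. Those counts therefore cannot be set against a general rate.

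Over all genes, DESeq2's Wald test called 526 of 17640 with CORT under isotype, beside 312 of 16071 in the main test. It called 219 of 16332 (main test 96) for αACBP under CORT and 118 of 10053 (34) for CORT under αACBP. For αACBP under vehicle it called 297 of 11399 (209), for both treatments 62 of 11848 (11) and for the interaction 188 of 11399 (23). The main test had 16071 genes in each comparison. Of 1431 member values recomputed with all livers, with only the groups compared or without 3 livers, 44 changed sign, 0 of them called. The interaction of Sqle turned to -0.023 with DESeq2's size factors, -0.024 by its Wald test and -0.026 with the filter of 10 counts in all livers. With the clock index the turned values were, for αACBP under CORT, Pmvk (0.064), Ggps1 (0.10) and Nsdhl (0.045). They were, for CORT under αACBP, Hmgcs1 (0.18), Mvk (0.078), Pmvk (0.15), Idi1 (0.10), Ggps1 (0.63), Fdft1 (0.049), Cyp51 (0.22), Tm7sf2 (-0.22), Msmo1 (0.25), Nsdhl (0.19), Dhcr7 (0.30), Soat2 (0.14) and Rdh11 (0.32). They were, for αACBP under vehicle, Mvd (-0.93), Ggps1 (-0.76) and Scap (-0.10). They were, in the interaction, Mvd (0.86), Ggps1 (0.87), Lss (0.57), Msmo1 (0.60), Scap (0.28), Soat2 (0.050) and Tmem97 (0.23). Without the 3 livers apart in Dbp they were, for CORT under isotype, Ggps1 (0.062) and Tmem97 (-0.0024). They were, for αACBP under CORT, Mvk (-0.086), Dhcr7 (-0.15), Scap (-0.14), Soat2 (-0.085) and Rdh11 (-0.072). They were, for CORT under αACBP, Tmem97 (-0.036). They were, in the interaction, Acat2 (-0.085), Hmgcs1 (-0.30), Fdft1 (-0.18), Sqle (-0.24) and Cyp51 (-0.026). With 1 liver left out, 101 of 1890 member values changed sign, each uncalled, and the log2 fold changes of the members concerned are given as ranges over the livers left out. For CORT under isotype the ranges were those of Fdps (-0.11 to 0.46), Ggps1 (-0.33 to 0.094), Msmo1 (-0.30 to 0.10), Stard4 (-0.068 to 0.21) and Tmem97 (-0.12 to 0.27). For αACBP under CORT the ranges were those of Mvk (-0.012 to 0.32), Pmvk (-0.46 to 0.15), Mvd (-0.67 to 0.10), Ggps1 (-0.36 to 0.23), Nsdhl (-0.22 to 0.14), Sc5d (-0.22 to 0.017), Scap (-0.042 to 0.23) and Rdh11 (-0.094 to 0.35). For CORT under αACBP the ranges were those of Ggps1 (-0.44 to 0.057), Tm7sf2 (-0.021 to 0.26), Nsdhl (-0.36 to 0.0072), Hsd17b7 (-0.20 to 0.12), Srebf2 (-0.041 to 0.26), Mylip (-0.16 to 0.24), Soat2 (-0.14 to 0.060), Tmem97 (-0.063 to 0.19) and Rdh11 (-0.39 to 0.0035). For αACBP under vehicle the ranges were those of Mvk (-0.24 to 0.058), Mvd (-0.26 to 0.37), Fdps (-0.64 to 0.0070), Ggps1 (-0.16 to 0.13), Msmo1 (-0.36 to 0.069) and Mylip (-0.083 to 0.31). For both treatments the ranges were those of Ggps1 (-0.42 to 0.038). In the interaction the ranges were those of Acat2 (-0.014 to 0.34), Hmgcs1 (-0.043 to 0.46), Pmvk (-0.12 to 0.56), Mvd (-0.80 to 0.082), Ggps1 (-0.38 to 0.21), Fdft1 (-0.18 to 0.25), Sqle (-0.21 to 0.19), Lss (-0.31 to 0.29), Cyp51 (-0.13 to 0.41), Scap (-0.34 to 0.079) and Tmem97 (-0.21 to 0.18). Under vehicle the index did not overlap between the antibody groups (-4.83 to -0.81 with isotype, 2.64 to 7.05 with αACBP), and this fit called 0 of all genes there.

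With the replicate number as a block, the counts of called members were 2 for CORT under isotype, 1 for both treatments and 0 in the other 4 comparisons, as without it. Of all genes, this fit called 1.77% for CORT under isotype, 0.0622% for both treatments and 0.124% to 1.15% in the others. At the adjusted p alone, the block took Tm7sf2 for CORT under isotype to 0.0538 and Sc5d for αACBP under vehicle to 0.0609 (edgeR quasi-likelihood test). With the block, Mvd (-0.071) and Ggps1 (-0.020) changed sign for αACBP under vehicle. Same-numbered livers did not deviate together (30 pairs, r between -0.10 and 0.10, 0 of them over 0.1), so no pairing by number was seen. These correlations cannot show how the mice were numbered. At a common biological coefficient of variation of 0.481, 5 livers a group limit what differences the test can find.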
